A study of Mus musculus with 6 samples.

Results

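The genes described here are 10 markers of mural cells, the cells that wrap blood vessels, and they were followed in the heart ventricle of mice on western diet (WD). They were taken as a named list, 6 contractile genes of vascular smooth muscle (Acta2, Tagln, Myh11, Cnn1, Myl9 and Lmod1) and 4 pericyte genes (Rgs5, Pdgfrb, Abcc9 and Cspg4), out of 54232 genes in the count files, of which 25581 had at least 1 count. Wild-type (WT) C57BL/6J mice were kept on WD for 15 weeks and then given Tributyrin, a triglyceride that releases butyrate, at 5 g/kg body weight by needle feeding for 3 weeks (WD + Tributyrin, 3 mice), or the vehicle alone on the same diet (WD + Vehicle, 3 mice, whose treatment the labels name PBS). Ventricle RNA from each mouse was sequenced as a stranded mRNA library, so both groups share strain, genotype, diet and tissue and differ by treatment. The age of the mice at RNA collection and the sex of each mouse are not in the labels, and the study used males and females. The comparison asks whether mural cell transcripts differ with Tributyrin, and whether the contractile and the pericyte genes do so alike.

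Mural cells form a continuum along the vessel wall. Smooth muscle cells ring arteries and arterioles and set vessel diameter through an actin and myosin apparatus, whereas pericytes sit on capillaries, hold less of that apparatus, and are kept in place by platelet-derived growth factor that endothelial cells release. Contractile genes are switched on together by serum response factor with its partners of the myocardin family, which bind a DNA element called the CArG box, and Notch signalling from the endothelium adds to this program. In the heart, pericytes are abundant because the muscle is dense in capillaries, and smooth muscle is limited to the coronary branches.

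Promoters were read for 7 of the 10 genes (Acta2, Cnn1, Myl9, Lmod1, Rgs5, Abcc9 and Cspg4) from RefSeq on build GRCm38.p6, each from 250 bases before to 50 bases after the RefSeq start. Those of Acta2 and Myl9 are shown because they held a CArG box, and those of Cnn1 and Lmod1 because these genes stood among the highest log2 fold changes of the 10. The windows are chr19:34255324-34255623 on the minus strand for Acta2, chr2:156775214-156775513 on the plus strand for Myl9, chr9:22099003-22099302 on the plus strand for Cnn1 and chr1:135324563-135324862 on the plus strand for Lmod1. Each runs 5′ to 3′ along the gene, and capitals mark a CArG box, counted also when its A and T core held 1 C or G.
Acta2: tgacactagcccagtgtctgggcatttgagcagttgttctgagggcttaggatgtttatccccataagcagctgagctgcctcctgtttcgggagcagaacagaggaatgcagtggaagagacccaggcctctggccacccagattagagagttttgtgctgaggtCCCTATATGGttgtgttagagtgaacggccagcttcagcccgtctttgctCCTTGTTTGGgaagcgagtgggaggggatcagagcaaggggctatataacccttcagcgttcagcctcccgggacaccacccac
Myl9: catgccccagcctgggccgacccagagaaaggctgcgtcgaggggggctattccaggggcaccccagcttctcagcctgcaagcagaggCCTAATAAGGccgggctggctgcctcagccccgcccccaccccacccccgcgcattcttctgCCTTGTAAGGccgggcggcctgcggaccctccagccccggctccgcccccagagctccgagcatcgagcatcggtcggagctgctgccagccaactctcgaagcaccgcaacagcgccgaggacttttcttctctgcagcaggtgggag
Cnn1: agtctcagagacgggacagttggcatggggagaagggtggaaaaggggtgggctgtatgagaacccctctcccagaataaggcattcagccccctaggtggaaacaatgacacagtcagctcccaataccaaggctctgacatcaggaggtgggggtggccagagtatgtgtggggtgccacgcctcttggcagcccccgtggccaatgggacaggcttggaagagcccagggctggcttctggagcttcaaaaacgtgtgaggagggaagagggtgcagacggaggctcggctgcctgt
Lmod1: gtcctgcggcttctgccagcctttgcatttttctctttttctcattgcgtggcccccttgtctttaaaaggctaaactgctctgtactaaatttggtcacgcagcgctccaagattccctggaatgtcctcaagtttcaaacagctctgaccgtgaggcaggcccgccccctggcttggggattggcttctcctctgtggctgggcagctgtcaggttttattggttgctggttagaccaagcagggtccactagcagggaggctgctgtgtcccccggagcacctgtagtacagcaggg

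Myl9 held a CArG box with an intact core from base -161 to -152 before the RefSeq start and a box with 1 C or G in the core from -99 to -90. Acta2 held boxes with 1 C or G in the core from -84 to -75 and from -34 to -25, although its GENCODE start lies 217 bases further upstream than the RefSeq start used here. No such box lay in the windows of Cnn1, Lmod1, Rgs5, Abcc9 or Cspg4, which says only that these letters are not in those 300 bases. Of all 32851 promoters of this length, 1.63% held the intact box on either strand, 8.5% the box with 1 C or G, and 9.98% either form. The MCAT element of TEAD factors (CATTCC, on either strand, in 14.7% of promoters) was found in Acta2, Lmod1 and Abcc9. The core of the Notch effector RBPJ (TGGGAA, on either strand, in 25.6% of promoters) was found in Acta2 from -27 to -22, where it overlaps the nearer CArG box, and in Abcc9 from -221 to -216, where it overlaps the MCAT element.

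The libraries held 20369746 to 32734485 counts on genes, and mitochondrial transcripts took 23.6% to 26.5% of them with Vehicle and 25.9% to 28.8% with Tributyrin. Counts were scaled between libraries by the TMM method and are given as CPM, a share of the scaled library size, and the groups were compared with edgeR's quasi-likelihood test over 14133 genes. All 10 mural genes passed the filter on low counts. With Benjamini-Hochberg adjustment over these genes edgeR called 0% of them at a false discovery rate (FDR) of 10%, the smallest adjusted p being 0.999, and 600 genes had an unadjusted p under 0.05. DESeq2 called 11 genes and limma-voom 0 at the same FDR, none of them among the 10 mural genes. The unadjusted p-values of the mural genes are therefore read below against the share of all genes that reached the same mark. Of all genes tested, 1.97% had an unadjusted p under 0.05 with a higher level after Tributyrin and 2.28% with a lower level. The groups did not overlap for 4.34% of genes with all Tributyrin mice higher and for 4.61% with all Tributyrin mice lower.

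The pericyte gene Rgs5 was the most abundant of the 10 mural transcripts once levels were divided by transcript length. In RPKM, which scales reads to library size and transcript length, its mean over the 6 mice was 115, followed by Acta2 at 53.3, Abcc9 at 51.4, Myl9 at 26.2 and Pdgfrb at 11.1. Below them lay Myh11 at 6.14 RPKM, Cspg4 at 1.81, Lmod1 at 1.44, Cnn1 at 1.22 and Tagln at 0.337. In every mouse Rgs5 exceeded Acta2, and the steps from Abcc9 to Myl9, Myl9 to Pdgfrb, Pdgfrb to Myh11, Myh11 to Cspg4 and Cnn1 to Tagln also held in 6 of 6 mice. Acta2 and Abcc9 could not be ordered, since Acta2 was the higher in 3 of 6 mice, and neither could Cspg4 against Lmod1 (4 of 6) or Lmod1 against Cnn1 (5 of 6). Abcc9, a subunit of ATP-sensitive potassium channels, is also expressed by cardiac muscle cells, and their share of its level was not tested. The order for Tagln rests on counts whose limits are given further on.

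All 6 contractile genes had a higher mean with Tributyrin, with a median log2 fold change of 0.44 against -0.0013 over all genes tested. For Myh11, Cnn1, Myl9 and Lmod1 the excess came mainly from Tributyrin mice 2 and 3. For Acta2, Vehicle mouse 2 was as high as Tributyrin mouse 2 (148 CPM). For Tagln, Tributyrin mouse 3 (0.522 CPM) was below the Vehicle mean of 0.651 CPM. Tributyrin mouse 1 lay near the Vehicle mice for most of the 6 genes. None of the 6 passed an FDR of 10%, and 3 of 6 (Myh11, Cnn1 and Lmod1) had an unadjusted p under 0.05, a mark that 1.97% of all genes reached in this direction. In bulk tissue, fewer cells of a type and less RNA per cell cannot be told apart.

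**Figure D1:**
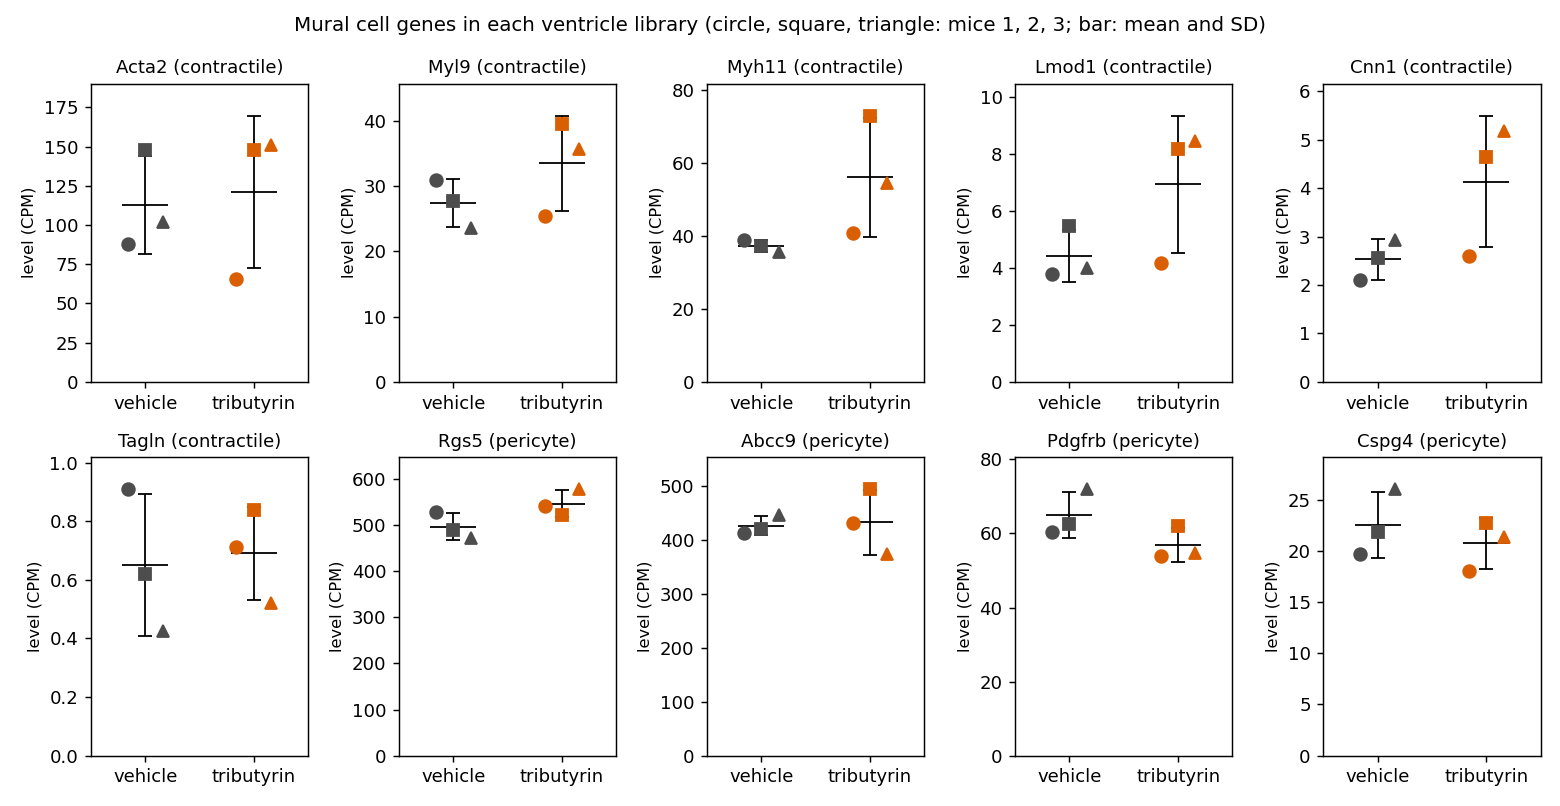
Level in CPM (y axis, from 0) of each of the 10 mural genes in the 3 WD + Vehicle and the 3 WD + Tributyrin mice, with circle, square and triangle for mice 1, 2 and 3 of a group and a bar for the group mean and SD. Squares and triangles of the Tributyrin group stand above the Vehicle mice for Myl9, Myh11, Lmod1 and Cnn1, while the circle stays close to them, and the pericyte genes spread less.

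All gene positions are from GENCODE M21 on GRCm38. Acta2 (ENSMUSG00000035783, chromosome 19 minus strand, 34241090-34255590) encodes the actin of smooth muscle thin filaments. Its level was 87.9, 148 and 102 CPM in Vehicle mice 1, 2 and 3 and 65.4, 148 and 151 CPM in Tributyrin mice 1, 2 and 3. The lowest and the highest of the 6 mice were both treated mice, the groups overlapped, and the log2 fold change of 0.11 (standard error 0.28) was smaller than its error. Myh11 (ENSMUSG00000018830, chromosome 16 minus strand, 14194535-14291372), the heavy chain of smooth muscle myosin and the most specific marker of mature smooth muscle among these genes, was at 39.0, 37.2 and 35.6 CPM with Vehicle and at 40.8, 73.1 and 54.5 CPM with Tributyrin. The Vehicle mice differed by 1.09-fold from lowest to highest and the treated mice by 1.79-fold. Myh11 was the only one of the 10 genes whose groups did not overlap, where 4.34% of all genes did so in this direction, although Tributyrin mouse 1 exceeded the highest Vehicle mouse by little. The mean was 37.2 ± 1.69 CPM with Vehicle and 56.1 ± 16.2 CPM with Tributyrin (SD, n = 3), 50.7% higher. By edgeR its log2 fold change was 0.59 (standard error 0.17) with an unadjusted p of 0.00535, rank 69 of 14133 genes, and a Benjamini-Hochberg adjusted p of 0.999. A two-sided exact permutation test on log2 CPM gave p = 0.1, the smallest that 3 mice against 3 allow.

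Myl9 (ENSMUSG00000067818, chromosome 2 plus strand, 156775420-156781658) is a regulatory light chain of smooth muscle myosin, and its phosphorylation starts contraction. Its level was 30.9, 27.7 and 23.6 CPM with Vehicle and 25.4, 39.4 and 35.7 CPM with Tributyrin. Tributyrin mice 2 and 3 were above every Vehicle mouse and Tributyrin mouse 1 lay within their range. The log2 fold change was 0.29 (standard error 0.15) with an unadjusted p of 0.0925 from edgeR. Acta2 and Myl9, whose promoters above hold a CArG box, thus had log2 fold changes of 0.11 and 0.29, and the 5 genes whose windows hold none had 0.71 (Cnn1), 0.63 (Lmod1), 0.14 (Rgs5), 0.022 (Abcc9) and -0.12 (Cspg4).

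Cnn1 (ENSMUSG00000001349, chromosome 9 plus strand, 22099216-22109630), or calponin, binds actin and restrains the myosin motor. Its level was 2.10, 2.56 and 2.93 CPM with Vehicle and 2.60, 4.64 and 5.18 CPM with Tributyrin, from 53 to 133 reads per library. Tributyrin mouse 1 fell among the Vehicle mice and the other two treated mice were above them all. The mean was 63.6% higher with Tributyrin, and edgeR gave a log2 fold change of 0.71 (standard error 0.26) and an unadjusted p of 0.0205, adjusted to 0.999 by Benjamini-Hochberg. Lmod1 (ENSMUSG00000048096, chromosome 1 plus strand, 135324807-135368065), leiomodin of smooth muscle, starts new actin filaments. It was at 3.79, 5.48 and 4.02 CPM with Vehicle and at 4.16, 8.19 and 8.49 CPM with Tributyrin. Here too Tributyrin mouse 1 lay inside the Vehicle range and mice 2 and 3 above it. The mean was 56.8% higher, the log2 fold change was 0.63 (standard error 0.26), and the unadjusted p from edgeR was 0.0335 with an adjusted p of 0.999. Exact permutation tests on log2 CPM gave p = 0.2 for Cnn1 and for Lmod1.

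Tagln (ENSMUSG00000032085, chromosome 9 minus strand, 45929619-45936058), or transgelin (SM22), binds actin and is one of the most abundant transcripts of smooth muscle in most tissues. Here it had only 9 to 24 reads per library, 0.909, 0.619 and 0.426 CPM with Vehicle and 0.712, 0.837 and 0.522 CPM with Tributyrin. The groups overlapped throughout, and the log2 fold change was 0.085 (standard error 0.37). That standard error was the largest of the 10 genes, and the counting error alone was 33.3% of the value in the library with 9 reads.

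The position of Tagln among other genes was examined after its values were seen. In GENCODE M21 exons of genes on the other strand cover 67.9% of its exonic bases. The antisense gene Gm48529 and the end of Pcsk7 cover all 603 coding bases of its main transcript, Tagln-201. Gm48529 itself had 4 to 16 reads per library. A counting program that ignores strand leaves out reads that fall on exons of more than 1 gene, and which strand setting made these counts is not given in the sources used here. Over the genome, 51.1% of the 16702 protein-coding genes with no such overlap had at least 100 reads over the 6 libraries, and so did 51.1% of the 137 genes overlapped, like Tagln, from 50% to under 80%. The share was 76.1% of the 4265 genes overlapped by more than 0% and under 20%, and 64.3% from 20% to under 50%. It was 7.79% of the 77 genes overlapped by at least 80%. Among overlapped genes the share thus fell as the overlap rose. Their median reads per kb of exon fell too, from 312.56 under 20% to 37.95 from 50% to under 80%, with 36.1 in genes without overlap. Tagln itself had 109 reads over the 6 libraries and is past the mark of 100 reads, so the mark cannot show whether a gene lost part of its reads. Pln, the phospholamban gene of cardiac muscle, had 231862 reads at an overlap of 64.7%, with 974 exonic bases free of it against 639 in Tagln. Genes with more overlap, picked after the counts of Tagln were seen, had few reads. These were Slirp with 1 (97.8%), Rangrf with 3 (90.7%), Ilk with 55 (89.7%), Fen1 with 63 (84.2%) and Gnpnat1 with 6 (81.9%). Of the 77 genes at 80% or more, 6 had at least 100 reads. Whether the overlap lowered the counts of Tagln was not tested, and its level is given as counted. For the other 9 genes at most 1.95% of 50-base stretches, the read length, were shared with any other gene.

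**Figure D2:**
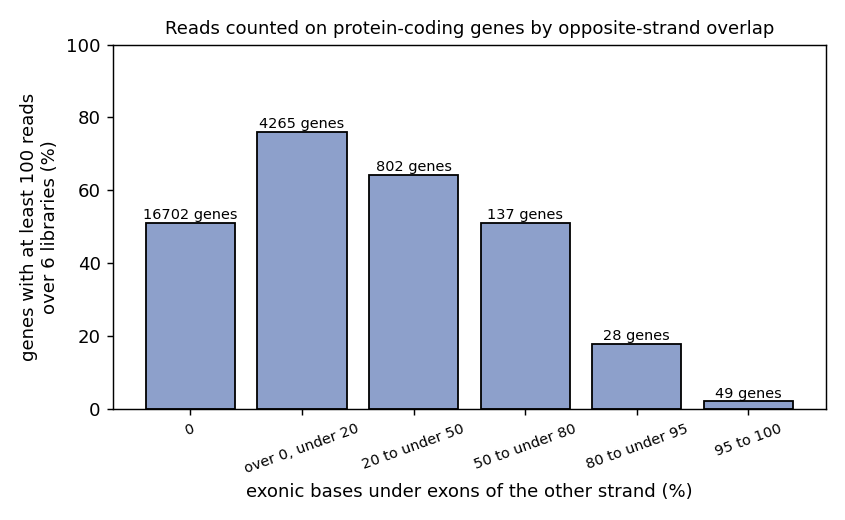
Percentage of protein-coding genes with at least 100 reads over the 6 libraries (y axis) by the share of their exonic bases that lie under exons of the other strand (x axis, percent), with the number of genes above each bar. The share is 51.1% without overlap. Among overlapped genes it falls from 76.1% in the bar under 20 through 64.3% and 51.1% (50 to 80) to 2.04% for the 49 genes overlapped by 95% or more. Tagln belongs to the bar from 50 to 80 and, with 109 reads, is past the mark.

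The 4 pericyte genes were split, 2 with a higher and 2 with a lower mean after Tributyrin, and their median log2 fold change was -0.048. None had an unadjusted p under 0.05 in either direction by edgeR, and for none did the groups lie apart. Of all genes tested, 1.97% reached that p with a higher and 2.28% with a lower level. Groups lay apart for 4.34% and 4.61%, so 0 of 4 genes is near these shares. Rgs5 (ENSMUSG00000026678, chromosome 1 plus strand, 169655501-169695813), a regulator of G protein signalling and the most abundant of the 10 mural transcripts, was at 529, 489 and 471 CPM with Vehicle and at 541, 521 and 577 CPM with Tributyrin. Tributyrin mice 1 and 3 stood above every Vehicle mouse and Tributyrin mouse 2 below Vehicle mouse 1, and the mean was 10.2% higher. The log2 fold change was 0.14 (standard error 0.074, unadjusted p 0.0875 from edgeR), a small difference measured with the smallest standard error of the 10 genes. Abcc9 (ENSMUSG00000030249, chromosome 6 minus strand, 142587862-142702315) was at 414, 421 and 447 CPM with Vehicle and at 432, 495 and 374 CPM with Tributyrin. Its highest and lowest values both came from treated mice, and its log2 fold change was 0.022 (standard error 0.097).

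Pdgfrb (ENSMUSG00000024620, chromosome 18 plus strand, 61045150-61085061) is the receptor through which platelet-derived growth factor recruits pericytes, and fibroblasts carry it as well. It was at 60.3, 62.7 and 71.9 CPM with Vehicle and at 54.0, 62.1 and 54.6 CPM with Tributyrin. Tributyrin mice 1 and 3 were below every Vehicle mouse and Tributyrin mouse 2 lay among them. Its log2 fold change was -0.19 (standard error 0.090), the lowest of the 10 genes, with an unadjusted p of 0.0608 from edgeR. Cspg4 (ENSMUSG00000032911, chromosome 9 plus strand, 56865033-56899870), the NG2 proteoglycan of the pericyte surface, was at 19.7, 21.8 and 26.02 CPM with Vehicle and at 18.0, 22.8 and 21.4 CPM with Tributyrin. The groups overlapped, and the log2 fold change was -0.12 (standard error 0.12).

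**Figure D3:**
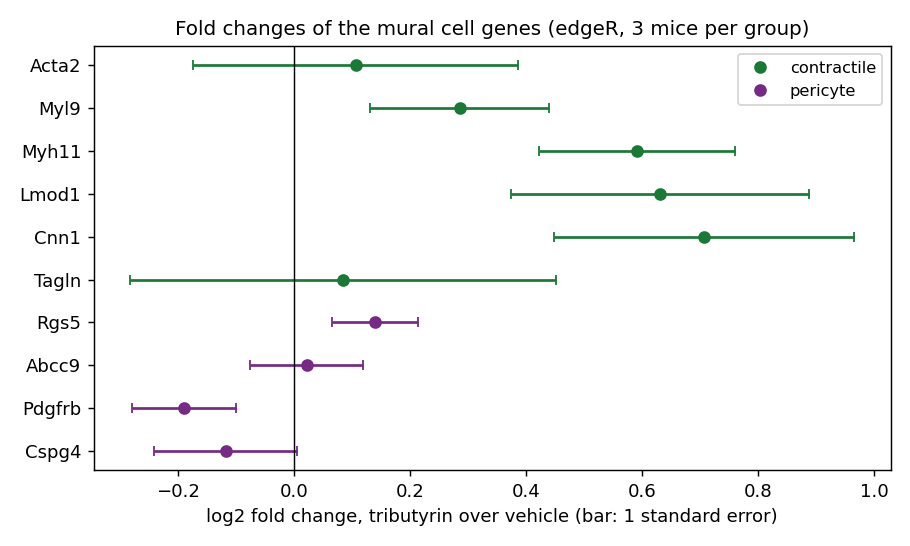
Log2 fold change of Tributyrin over Vehicle by edgeR (x axis) for each of the 10 genes (y axis), with bars of 1 standard error. Contractile genes run from 0.085 for Tagln to 0.71 for Cnn1 and pericyte genes from -0.19 for Pdgfrb to 0.14 for Rgs5.

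To set the classes against each other within a mouse, log2 CPM was averaged over the genes of each class. The contractile mean was 3.29, 3.43 and 3.17 in the Vehicle mice and 3.20, 3.98 and 3.82 in the Tributyrin mice. Tributyrin mice 2 and 3 were the highest of the 6 and Tributyrin mouse 1 was the second lowest, so the groups overlapped. The group means were 3.30 ± 0.13 and 3.67 ± 0.41 (SD, n = 3), a difference of 0.37. For the pericyte genes the mean was 6.99, 7.02 and 7.14 with Vehicle and 6.94, 7.11 and 6.98 with Tributyrin, a difference of -0.038 within overlapping groups. The contractile mean minus the pericyte mean was -3.70, -3.59 and -3.97 with Vehicle and -3.74, -3.14 and -3.16 with Tributyrin. In this difference Tributyrin mice 2 and 3 again stood above the Vehicle mice, mouse 1 stood within them, and the groups differed by 0.41. Without Tagln, a choice made after its counts were seen, the contractile difference was 0.42 and its excess over the pericyte difference 0.46.

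**Figure D4:**
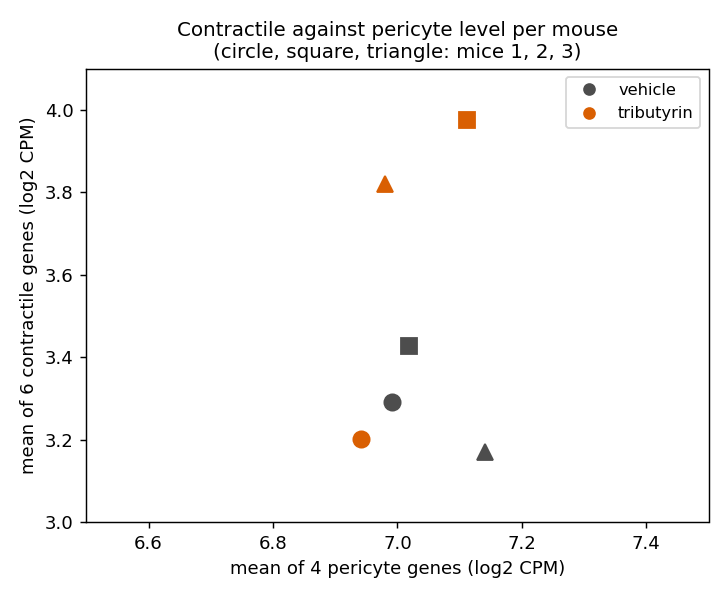
Mean log2 CPM of the 6 contractile genes (y axis) against that of the 4 pericyte genes (x axis), 1 point per mouse, with grey for WD + Vehicle, orange for WD + Tributyrin and circle, square and triangle for mice 1, 2 and 3. Tributyrin mice 2 and 3 sit at 3.98 and 3.82 on the contractile axis, above the other 4 mice at 3.17 to 3.43, while all 6 lie between 6.94 and 7.14 on the pericyte axis.

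The single mice show the same split gene by gene. Tributyrin mouse 2 was above the 6-mouse mean of log2 CPM for 6 of 6 contractile genes, Tributyrin mouse 3 for 5 of 6 (all but Tagln) and Tributyrin mouse 1 for 1 of 6. Among the Vehicle mice the same counts were 2, 2 and 0 of 6. Highest to lowest treated mouse, the spread was 2.30-fold for Acta2, 2.04-fold for Lmod1 and 1.99-fold for Cnn1, against 1.11-fold for Rgs5 and 1.15-fold for Pdgfrb. The largest relative counting error of a library was 2.33% for Acta2, 3.65% for Myh11 and 13.7% for Cnn1. The number of contractile genes with an unadjusted p under 0.05 followed the mouse left out. It was 5 without Tributyrin mouse 1, and 1 without Tributyrin mouse 2, without Tributyrin mouse 3 or without Vehicle mouse 1, against 3 with all mice. Over all genes tested, in both directions, the same mark was reached by 534 genes without Tributyrin mouse 1, 1360 without Tributyrin mouse 2, 663 without Tributyrin mouse 3 and 708 without Vehicle mouse 1, against 600 with all mice. The median log2 fold change of the contractile genes ran from 0.25 without Tributyrin mouse 2 to 0.62 without Tributyrin mouse 1. Acta2 was higher with Tributyrin only while Vehicle mouse 1, Tributyrin mouse 2 and Tributyrin mouse 3 were all kept, and its log2 fold change was -0.038, -0.063 and -0.077 without each of them.

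The calls depended on the filter. When no filter on low counts was used, edgeR called 167 of the 25581 genes with at least 1 count at an FDR of 10%. Among them were Myh11 (Benjamini-Hochberg adjusted p 3.699e-07), Lmod1 (0.0239) and Cnn1 (0.0878), with log2 fold changes of 0.59, 0.63 and 0.71 as before. Their standard errors were smaller than with the filter, 0.0951 against 0.1683 for Myh11, 0.1632 against 0.2571 for Lmod1 and 0.2053 against 0.2585 for Cnn1. The spread between the mice was the same, so these calls rest on the smaller errors. With DESeq2 and limma-voom 0 of the 10 mural genes passed an FDR of 10%, and 3 and 2 of the contractile genes had an unadjusted p under 0.05, a mark that 460 genes reached with DESeq2 and 605 with limma-voom in both directions.

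Of 14 other genes of the smooth muscle apparatus 13 had a higher and 1 a lower mean with Tributyrin, where 49.6% of all genes tested were higher. Their median log2 fold change was 0.16, below that of the 6 contractile genes. Some of the 13 were near 0, such as Itga8 at 0.013 (standard error 0.15), and the groups overlapped for all 14. Tpm2, a tropomyosin that lies along actin filaments, was the only one with an unadjusted p under 0.05 (log2 fold change 0.34, unadjusted p 0.0305 from edgeR). Of all genes tested, 1.97% reached that mark in this direction. Tpm2 was at 19.6, 18.2 and 19.1 CPM with Vehicle and at 18.7, 28.1 and 25.0 CPM with Tributyrin, again with Tributyrin mice 2 and 3 high and mouse 1 among the Vehicle mice. The highest value was that of Actg2, the enteric smooth muscle actin (0.67, standard error 0.49), which had 8 to 45 reads per library, and the lowest that of Nrip2 (-0.032, standard error 0.19). Des and Cald1 in this list are also expressed by cardiac muscle or other cells, and their log2 fold changes were 0.068 and 0.13.

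Of 12 other pericyte genes 5 had a higher and 7 a lower mean, with a median log2 fold change of -0.069. Rgs4, a relative of Rgs5, was the one with an unadjusted p under 0.05 (log2 fold change 0.22, unadjusted p 0.0435 from edgeR), at 13.0, 13.1 and 15.0 CPM with Vehicle and at 16.2, 15.6 and 15.9 CPM with Tributyrin, with no overlap between the groups. Of all genes tested, 1.97% reached this p and 4.34% had groups apart in this direction. Higd1b had the highest value (0.25) and P2ry14, a nucleotide sugar receptor, the lowest (-0.25). Kcnj8, the channel subunit that pairs with Abcc9, was at 0.0068 (standard error 0.074).

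Among 18 ligands, receptors and transcription factors that act on mural cells, 6 had a higher and 11 a lower mean, 1 (S1pr1) was at 0, and the median log2 fold change was -0.029. Angpt1, the angiopoietin that mural cells release to steady the endothelium through Tek, was at 30.8, 21.8 and 24.4 CPM with Vehicle and at 40.7, 32.5 and 31.1 CPM with Tributyrin. Every treated mouse exceeded every Vehicle mouse, Tributyrin mouse 1 being the highest, and edgeR gave a log2 fold change of 0.44 (standard error 0.14) with an unadjusted p of 0.00967. Angpt1 was the only gene of the list with an unadjusted p under 0.05. Of all genes tested, 1.97% reached this p and 4.34% had groups apart in this direction. For the factors of the contractile program, the log2 fold change was -0.084 for Srf (serum response factor, standard error 0.071) and -0.18 for Myocd (myocardin, 0.14). It was -0.24 for Mrtfa (standard error 0.12), the lowest of the list, and -0.053 for Mrtfb (0.082). These are mRNA levels of the whole ventricle, and the activity of the factors was not tested. Those of the ligands Pdgfb, Pdgfd and Pdgfa were 0.11, 0.023 and -0.0090, and that of the Notch ligand Jag1 was -0.041.

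**Figure D5:**
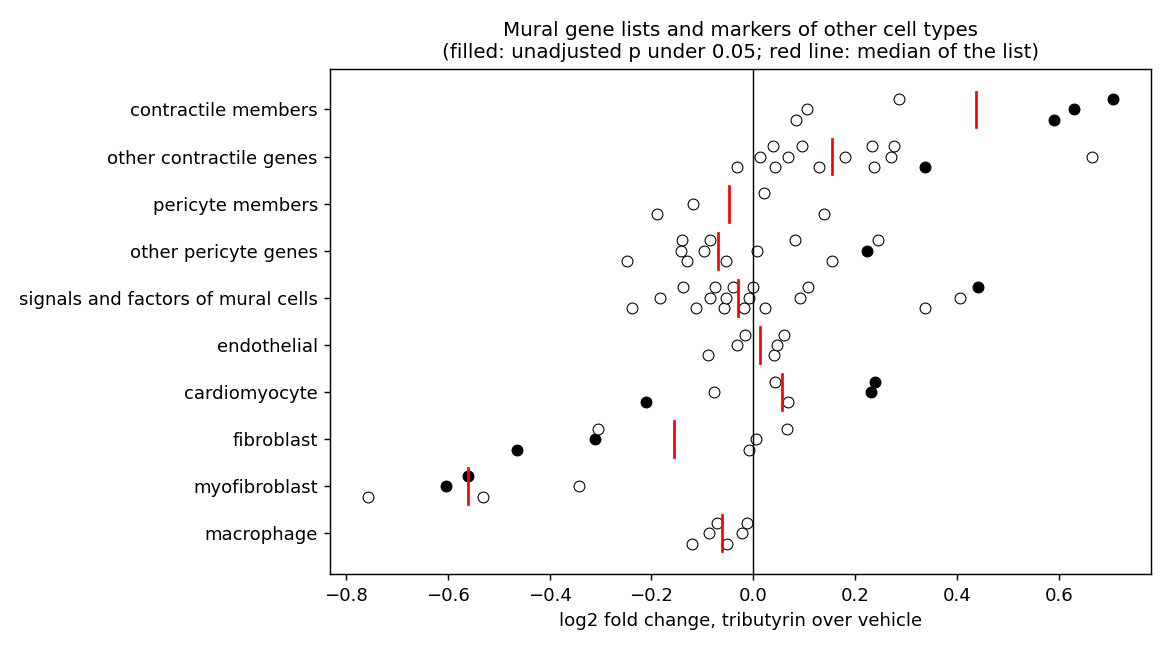
Log2 fold change of Tributyrin over Vehicle by edgeR (x axis), 1 point per gene tested, for the mural lists and for markers of 5 other cell types of the ventricle (y axis), filled where the unadjusted p was under 0.05, with a red line at each list's median. The contractile genes have a median of 0.44 and the pericyte genes of -0.048, and the myofibroblast markers lie to the left at a median of -0.56.

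Markers of other cells were measured beside these genes, and their part in the mural values was not tested. Of all genes tested, 1.97% had an unadjusted p under 0.05 with a higher level after Tributyrin and 2.28% with a lower level. Of 6 endothelial markers 3 were higher and 3 lower, with 0 at an unadjusted p under 0.05 and a summed level of 594 to 611 CPM with Vehicle and 566 to 631 CPM with Tributyrin. Fibroblast markers had 2 of 6 with an unadjusted p under 0.05, both lower (Col1a1 -0.46 and Lum -0.31), and all 5 myofibroblast markers tested were lower, 2 of them with an unadjusted p under 0.05 (Cilp -0.60 and Col8a1 -0.56). Summed myofibroblast levels were 65.6 to 109 CPM with Vehicle and 44.9 to 73.2 CPM with Tributyrin. Acta2, Tagln and Cnn1, with log2 fold changes of 0.11, 0.085 and 0.71, are also made by myofibroblasts. The part of these cells in their levels was not tested. Cardiomyocyte markers had 2 of 6 higher (Tnnt2 0.23 and Pln 0.24) and 1 lower (Actc1 -0.21) at an unadjusted p under 0.05. Markers of atrial muscle were lower for 5 of 5 tested, 4 with an unadjusted p under 0.05. They summed to 182, 173 and 53.8 CPM in the Vehicle mice and 31.04, 64.4 and 46.3 CPM in the Tributyrin mice. Within the Tributyrin group the mouse with the least atrial signal, mouse 1, was also the one with contractile values like those of the Vehicle mice, while Vehicle mice 1 and 2 carried the most atrial signal and had contractile means of 3.29 and 3.43. Whether atrial signal and contractile level were linked was not tested. None of the macrophage, Schwann cell, mesothelial or brown adipocyte markers had an unadjusted p under 0.05 (0 of 6, 3, 4 and 1 tested), and Ucp1, which defines brown adipocytes, had 0 counts in every library.

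Over the 6 libraries, which share treatment as a source of correlation and are few, each gene was compared with the mean of the other genes of its class as a description. Lmod1 (Pearson r 0.931), Myl9 (0.909) and Myh11 (0.897) followed the contractile mean most closely, Cnn1 (0.768) and Acta2 (0.63) less so, and Tagln did not (0.013). Pdgfrb (0.626) and Cspg4 (0.622) followed the pericyte mean, Abcc9 (0.314) weakly, and Rgs5 ran opposite to it (-0.809), so the 4 pericyte genes did not vary as a unit. Each of these r leaves the gene itself out of the mean. Of 9691 other genes with a mean of at least 5 CPM, those with the highest r to the contractile mean were Manf (0.99), Spire1 (0.989), Tor3a (0.988), Nxn (0.987) and Ifi205 (0.986). The highest r to the pericyte mean were those of Jag1 (0.988), Atxn2l (0.985), Pan3 (0.982), Anpep (0.978) and Sec24b (0.978). Jag1 and Anpep are also in the mural lists above. These genes were picked as the highest of 9691 over 6 libraries, and no chance level was computed, so their r show no link to mural cells.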

How the data were processed

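Ventricle RNA of 6 mice was sequenced as stranded mRNA libraries with single reads of 50 bases. Adapters, poor reads and rRNA reads had been removed by the authors, who aligned the rest with STAR, counted reads per gene with HTSeq and deposited the raw counts. The submitters' processing notes name cutadapt 1.13, STAR, HTSeq 0.6.1p1, DESeq2 1.14.1 and build mm10, while no source used here states which annotation release or strand setting HTSeq was run with. Of 54232 identifiers, 54165 matched GENCODE M21, which gave symbols, positions and exonic lengths, and 0 rows named no gene.

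Samples were grouped by their labels. Counts were compared with edgeR 4.0.16 (R 4.3.3) by its quasi-likelihood test with TMM scaling, no covariate, Benjamini-Hochberg adjustment over all genes tested, and filterByExpr set to a minimum count of 10 and a total of at least 15. Standard errors are the log2 fold change divided by the root of the F statistic. CPM used TMM-scaled library sizes, log2 CPM a prior count of 2, and RPKM the exonic length per gene. Alternatives were no filter, library size alone, DESeq2-type size factors, DESeq2 1.42.0, limma-voom (limma 3.58.1), a replicate block, sums of CPM over the genes of a class, and leaving out each mouse. Leaving out Tagln was added after the data were seen. Annotation, promoters and plots were handled in Python 3.11.15 (pandas 2.3.3, numpy 2.4.6, matplotlib 3.10.9).

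The mural genes and all lists were chosen with earlier results of these data known. Genes named are all 10 mural genes, and from each other mural list those with an unadjusted p under 0.05, the highest and the lowest. The 5 genes most like each class mean are also named, and further genes were named after their values were seen. Deeper libraries have less counting error. Pairs of libraries differed by more than sampling noise (chi-square per degree of freedom 7.4 to 31.84). In simulated data on 13970 genes, the test recovered at an FDR of 10% 51.5% of genes given a log2 change of 0.5, 82.8% of those given 1 and 96.9% of those given 2, with 10.2% of calls false. Each simulated gene was drawn independently of the others, so differences between mice that many genes share were left out. These shares therefore check the code and do not give the power in the real data. The other groups of the study were not analysed here.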

Additional observations from a re-analysis of the deposited data

How the results depend on the processing

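The contractile mean stayed higher with Tributyrin under the alternatives run for it (other scalings, the replicate block, sums of CPM, without Tagln, and mice left out). It ran from 0.2143 without Tributyrin mouse 2 to 0.6062 without Tributyrin mouse 1 when mice were left out, and was 0.2209 as the log2 sum of CPM, which Acta2 dominates. Contractile minus pericyte ran from 0.2993 without Vehicle mouse 3 to 0.6044 without Tributyrin mouse 1, and was 0.1559 for sums of CPM. The pericyte difference had no stable sign, from -0.0882 to 0.0072 with mice left out. It was above 0 without Vehicle mouse 3 (0.0072), without Tributyrin mouse 1 (0.0018) and as the log2 sum of CPM (0.065), which Rgs5 and Abcc9 dominate.

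Of single genes, Abcc9 turned lower with library size alone (-0.0477) and without Tributyrin mouse 2 (-0.0833) and reached 0.1194 without Tributyrin mouse 3. Acta2 turned lower without Vehicle mouse 1 (-0.0379), Tributyrin mouse 2 (-0.0632) or Tributyrin mouse 3 (-0.0773) and reached 0.4114 without Tributyrin mouse 1. Tagln turned lower without Vehicle mouse 3 (-0.1146) or Tributyrin mouse 2 (-0.0762) and reached 0.3834 without Vehicle mouse 1. Myh11, Cnn1, Myl9, Lmod1, Rgs5, Pdgfrb and Cspg4 kept their direction under the alternatives run. The cause was not tested.

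The count of genes at an FDR of 10% was 0 with edgeR, 167 with no filter, 11 with DESeq2 and 0 to 3 with a mouse left out (0 only without Vehicle mouse 2). With the replicate block it was 2. The mice were not treated as pairs in the main test. Over all genes tested, deviations of same-numbered mice from their group means correlated at 0.214, 0.037 and 0.015. Differently numbered mice were not compared, so these values do not decide whether the numbers pair the mice. The block called none of the mural genes, but the standard error of Acta2 fell from 0.2795 to 0.1455. Unadjusted p from edgeR with the block was 0.00265 for Myh11, 0.004777 for Cnn1 and 0.007285 for Lmod1, and 731 genes were under 0.05. Of the mural genes Tagln had the fewest reads and the largest standard error.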
